A study of Homo sapiens with 9 samples.

Results

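The genes described here are 9 interferon-stimulated genes, BST2, ISG15, IFITM1, IFITM2, IFITM3, IFI6, IFI27, IRF1 and IFI16, chosen by symbol from the 62710 Ensembl genes of the deposited count table. Each symbol matched 1 Ensembl gene, and all 9 were among the 23075 genes that passed the filter on low counts. The cells were H9, an established line of human embryonic stem cells with a wild-type genotype. All of them were grown for 72 hours in the stem cell medium mTeSR1 on a flexible, Matrigel-coated silicone (PDMS) plate, and then for 48 hours in N2B27 medium with SB431542 and LDN, inhibitors of the activin/nodal and BMP branches of SMAD signalling, a standard route to neuroepithelium. For a last 24 hours the inhibitors were kept on while the plate was left flat (the control), bent concave or bent convex, with 3 libraries of polyadenylated RNA for each plate shape. Every group therefore carried the inhibitors, and plate shape is the difference the labels give. Separate cultures are not named in the labels, so a p-value here weighs a difference against variation among libraries that could be technical replicates.

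Interferons are secreted signals of viral infection. Type I interferons bind a receptor of IFNAR1 and IFNAR2 chains, the kinases JAK1 and TYK2 then phosphorylate STAT proteins, and these join IRF9 and bind the interferon-stimulated response element (ISRE) in the promoters of target genes, while interferon gamma acts through a different element, GAS. Pluripotent stem cells are known to respond weakly to interferon and to express part of its target genes, IFITM genes among them, without it.

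Promoter windows of the genes that the results turn on are shown for the ISRE and GAS, the elements named above. They run from 250 bases before to 50 bases after the start site in RefSeq (GRCh38.p14), each read 5′ to 3′ on the gene's own strand, and 8 of the 9 genes had an entry, the exception being IFITM2. Capitals mark the ISRE core, 2 copies of GAAA with any 2 bases between them, searched on both strands, and TTCNNNGAA (GAS, which reads the same on both strands). Those of BST2 (chr19:17405581-17405880, minus strand), ISG15 (chr1:1013247-1013546, plus strand), IFI6 (chr1:27672143-27672442, minus strand), IFITM1 (chr11:313790-314089, plus strand), IFITM3 (chr11:320811-321110, minus strand) and IRF1 (chr5:132490724-132491023, minus strand) read as follows.
BST2: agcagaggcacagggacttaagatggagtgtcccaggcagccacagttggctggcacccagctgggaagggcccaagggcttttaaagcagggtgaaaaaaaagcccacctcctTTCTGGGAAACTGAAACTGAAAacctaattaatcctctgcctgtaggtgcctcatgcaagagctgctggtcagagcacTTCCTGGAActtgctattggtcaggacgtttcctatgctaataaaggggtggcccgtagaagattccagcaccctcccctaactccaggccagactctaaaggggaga
ISG15: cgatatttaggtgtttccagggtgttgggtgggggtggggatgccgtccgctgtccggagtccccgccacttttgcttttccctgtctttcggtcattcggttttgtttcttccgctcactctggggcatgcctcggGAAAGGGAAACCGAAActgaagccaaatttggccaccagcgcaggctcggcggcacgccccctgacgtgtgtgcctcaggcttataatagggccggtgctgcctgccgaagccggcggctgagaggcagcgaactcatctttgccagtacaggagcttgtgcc
IFI6: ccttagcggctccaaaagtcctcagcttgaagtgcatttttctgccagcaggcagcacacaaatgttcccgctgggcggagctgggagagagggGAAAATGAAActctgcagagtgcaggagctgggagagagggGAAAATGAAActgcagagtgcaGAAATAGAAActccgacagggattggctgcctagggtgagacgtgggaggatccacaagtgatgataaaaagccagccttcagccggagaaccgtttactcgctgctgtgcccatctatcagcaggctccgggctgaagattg
IFITM1: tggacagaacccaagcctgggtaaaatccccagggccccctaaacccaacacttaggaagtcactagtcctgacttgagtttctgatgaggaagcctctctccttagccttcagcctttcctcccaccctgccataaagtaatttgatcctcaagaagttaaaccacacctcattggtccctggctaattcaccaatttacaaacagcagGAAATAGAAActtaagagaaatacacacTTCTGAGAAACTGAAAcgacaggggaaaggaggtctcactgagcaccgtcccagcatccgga
IFITM3: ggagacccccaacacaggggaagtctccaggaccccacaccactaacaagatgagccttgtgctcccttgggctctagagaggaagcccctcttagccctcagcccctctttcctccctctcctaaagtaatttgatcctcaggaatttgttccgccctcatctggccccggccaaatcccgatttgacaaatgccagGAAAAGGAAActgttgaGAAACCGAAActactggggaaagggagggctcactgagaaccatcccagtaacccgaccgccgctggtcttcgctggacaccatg
IRF1: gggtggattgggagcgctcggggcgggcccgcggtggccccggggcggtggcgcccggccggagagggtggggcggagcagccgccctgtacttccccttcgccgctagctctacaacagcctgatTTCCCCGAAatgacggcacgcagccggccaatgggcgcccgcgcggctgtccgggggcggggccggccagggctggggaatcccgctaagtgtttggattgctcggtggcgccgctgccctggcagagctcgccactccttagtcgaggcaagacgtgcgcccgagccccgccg

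The ISRE letters occurred in the windows of 6 of the 8 genes, BST2, ISG15, IFITM1, IFITM3, IFI6 and IFI27, and each of these 6 held at least 2 matches. Among all 35116 promoter windows of the table, 3.57% held the letters and 0.259% held them at least 2 times. In BST2 and in ISG15 the pair of matches overlapped, so that a run of GAAA repeats began 130 and 113 bases before the start site. IFI6 held 3 matches, beginning 156, 115 and 93 bases before its start, and those of IFITM1 and IFITM3 lay closer, at 40 and 6 bases and at 52 and 35 bases. In IFI27 (not printed) a match on the opposite strand began 108 bases before the start and a match on the gene's strand 95 bases before it, or 187 and 174 bases in the window of its second start. The GAS letters were found in 4 genes (BST2 with 2 matches, IFITM1, IFI27 and IRF1), against 7.66% of all windows. The GAS match nearer the ISRE overlapped it in BST2, IFITM1 and IFI27, and IRF1 held GAS without the ISRE. IFI16 held neither in its pair of windows.

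**Figure D1:**
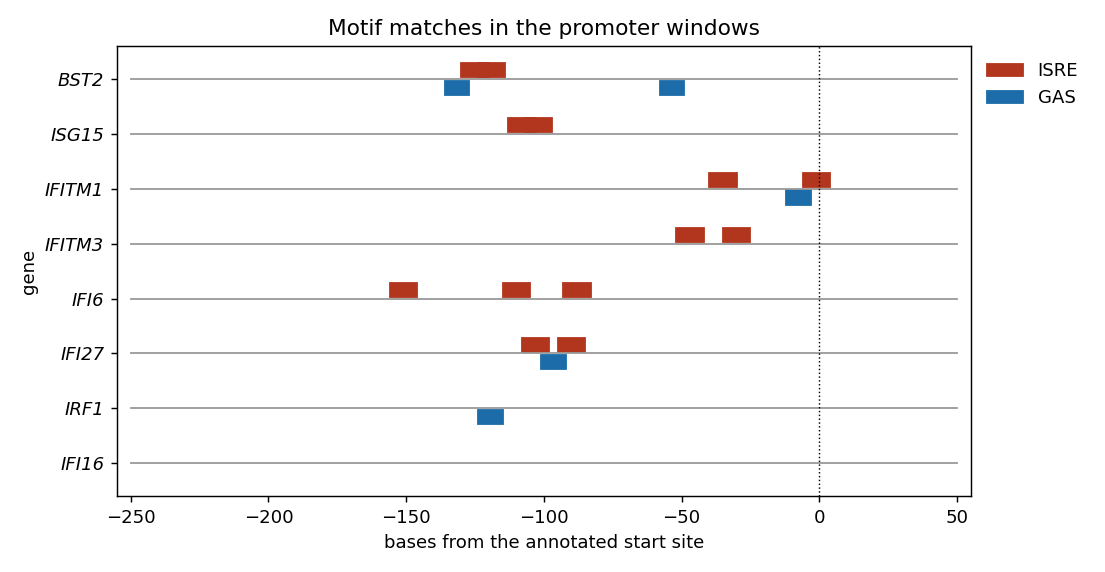
Position of ISRE (red, drawn above the line) and GAS (blue, drawn below it) letter matches in the promoter windows of the 8 genes with a RefSeq entry, in bases from the annotated start site (dotted line); of IFI27 and IFI16, which had 2 windows each, 1 is drawn. In the windows drawn, matches of the ISRE lie within 156 bases before the start in the 6 genes that hold it, and IFI16 has no match.

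CPM are counts per 1000000 of the library total as scaled by edgeR's TMM factors. Library totals ran from 49420082 to 64763412 counts. Flat replicate 2 (flat 2) had the smallest total and stood apart by transcript length. Relative to the median of the other 8 libraries, its median log2 difference was 0.27 over 4856 tested genes with transcripts under 1000 nucleotides and -0.36 over 8080 genes of 3000 nucleotides or more. The 3 libraries with replicate number 3 also stood apart from numbers 1 and 2, whatever the plate shape. Of 8 pluripotency markers 6 were called higher there (edgeR, adjusted p under 0.05), POU5F1 among them (log2 difference 0.92). NANOG, also among the 6, lay under 1 CPM in every library (0 to 0.475 CPM). SOX2 fell (-0.56) and LIN28A was not called. The list summed to 4066 to 4141 CPM against 2993 to 3424 CPM in numbers 1 and 2. Of 8 early neuroectoderm markers 5 were called lower and OTX2, SOX1 and HESX1 were not called, and their sum, 472 to 671 against 1336 to 2496 CPM, moved mostly with DLK1, at means of 113 and 887 CPM. Markers of blood and immune cells, which also express interferon-stimulated genes, summed to 2.98 to 8.46 CPM, with 7 of 8 under 1 CPM and AIF1 the exception. The neuroectoderm markers OTX2 (257 to 318 CPM) and SIX3 (22.4 to 200 CPM) were present in every library, and PAX6, a transcription factor of neuroectoderm, stood at 1.09 to 7.10 CPM.

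The 9 genes spanned a wide range of abundance. Per kilobase of transcript, BST2 averaged 195 CPM per kb and IFITM3 187 CPM per kb over the 9 libraries, above 98.7% and 98.6% of the 21940 tested genes with a known transcript length. IFITM2 (53.9 CPM per kb), IFITM1 (41.0) and ISG15 (29.03) followed, and then IFI6 (7.68), IFI16 (2.87), IFI27 (2.602) and IRF1 (1.14), the last 3 in the lower part of the tested genes, at percentiles 48.7, 47.2 and 34.8. Neighbours in this order overlapped over the 9 libraries, except between IFITM3 and IFITM2, between IFI6 and IFI16 and between IFI27 and IRF1. BST2 lay above IFITM3 in 4 of 9 libraries only, and ISG15 lay above IFI6 within each of the 9 libraries although their ranges overlapped.

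**Figure D2:**
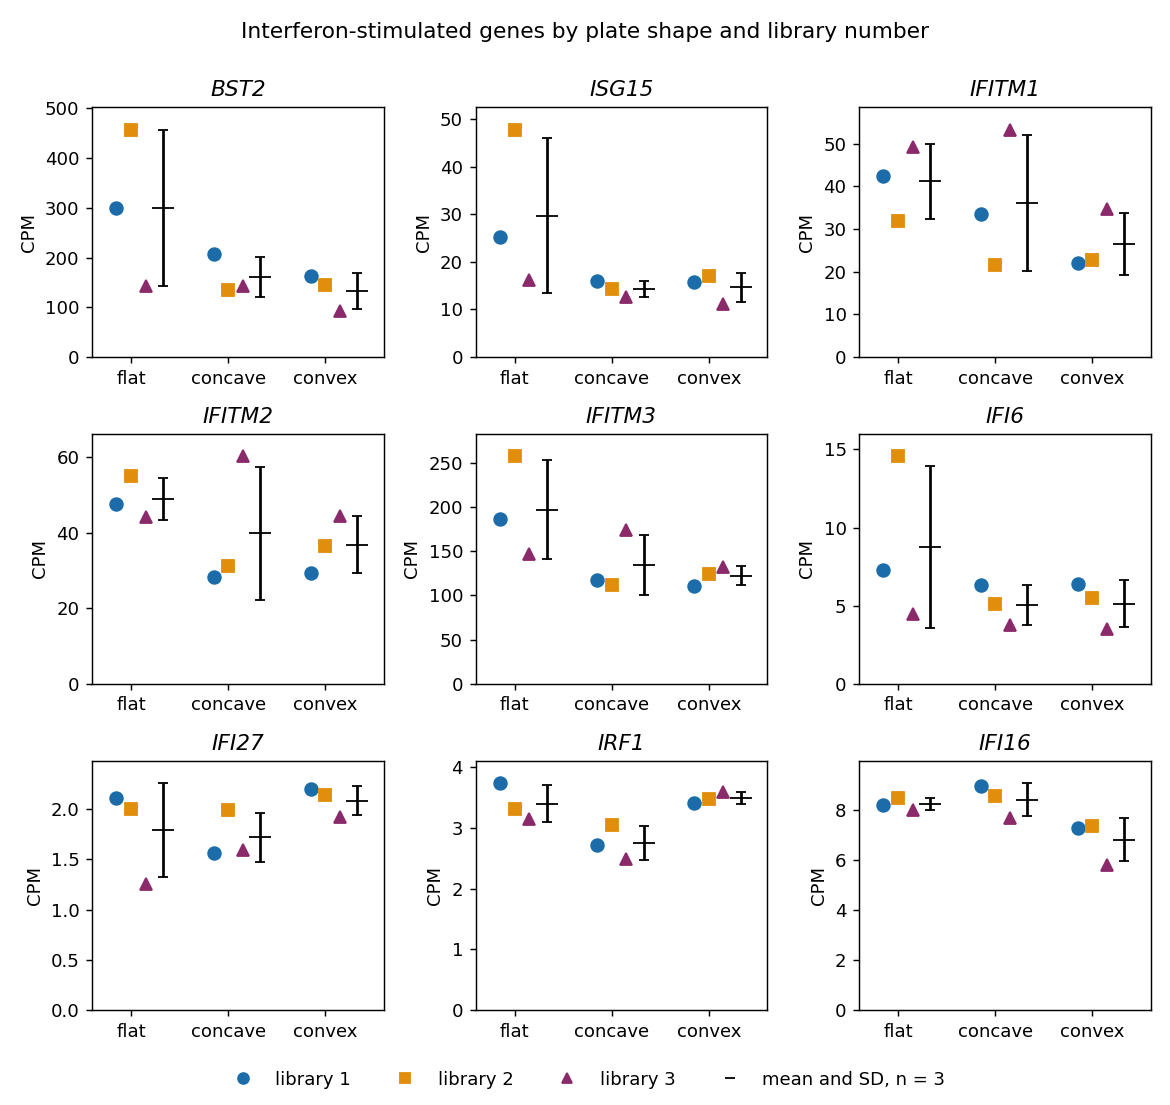
CPM (TMM-scaled) of each of the 9 genes in the 9 libraries, by plate shape, with the library number as colour and symbol; horizontal ticks and bars give the mean and SD of 3 libraries. Flat library 2 is the highest of the 9 for BST2 (457 CPM), ISG15 (47.8), IFITM3 (257) and IFI6 (14.5), and IFI27, IRF1 and IFI16 vary little.

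BST2 (tetherin; ENSG00000130303, chr19:17402939-17405648), a membrane protein that holds budding enveloped viruses at the cell surface, measured 300.2, 457 and 144 CPM in flat libraries 1, 2 and 3. It measured 208, 134 and 143 CPM in the concave libraries and 162, 146 and 91.6 CPM in the convex ones. Flat 2 was the highest and convex 3 the lowest, and the plate shapes overlapped because flat 3 lay within the range of the curved libraries. The means were 300.3 ± 157 CPM flat, 162 ± 40.5 concave and 133 ± 36.9 convex (SD, n = 3 each), and the flat mean was 222 CPM without flat 2. In bulk RNA, fewer cells that express a gene and less RNA per cell cannot be told apart.

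ISG15 (ENSG00000187608, chr1:1001138-1014540), a ubiquitin-like protein that is attached to other proteins, measured 25.2, 47.8 and 16.2 CPM in flat libraries 1 to 3. It measured 15.9, 14.3 and 12.7 CPM in the concave and 15.8, 17.0 and 11.2 CPM in the convex libraries. All 3 concave libraries lay below all 3 flat ones, flat 3 by a narrow margin over concave 1, and convex 2 lay above flat 3. Means were 29.7 ± 16.3, 14.3 ± 1.61 and 14.7 ± 3.04 CPM, and 20.7 CPM for flat without flat 2.

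IFI6 (ENSG00000126709, chr1:27666061-27672218), a small membrane protein with antiviral activity, measured 7.28, 14.6 and 4.49 CPM flat, 6.29, 5.09 and 3.75 CPM concave and 6.40, 5.49 and 3.50 CPM convex. Flat 2 was above every other library, and the plate shapes overlapped. Its flat mean, 8.77 ± 5.19 CPM, became 5.89 CPM without flat 2, beside 5.04 ± 1.27 CPM concave and 5.13 ± 1.48 CPM convex. IFI27 (ENSG00000165949, chr14:94104836-94116698), a relative of IFI6, stood at 1.26 to 2.19 CPM, from 72 to 149 counts a library. Its means were 1.79 ± 0.465 CPM flat, 1.72 ± 0.240 concave and 2.08 ± 0.145 convex, with overlapping libraries.

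The IFITM genes lie beside each other on chromosome 11 and encode membrane proteins that hinder the fusion of viruses with cell membranes. IFITM3 (ENSG00000142089, chr11:319669-327537) measured 186, 257 and 147 CPM flat, 118, 112 and 174 CPM concave and 110.3, 124.5 and 132 CPM convex. All 3 convex libraries lay below all 3 flat ones, and concave 3 lay above flat 3. The means were 197 ± 55.9, 135 ± 34.3 and 122 ± 11.0 CPM, with 167 CPM for flat without flat 2.

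IFITM1 (ENSG00000185885, chr11:313506-315272) measured 42.4, 31.9 and 49.3 CPM flat, 33.5, 21.6 and 53.2 CPM concave and 21.9, 22.7 and 34.7 CPM convex. Within each plate shape the library numbered 3 was the highest, and flat 2 was the lowest flat library. IFITM2 (ENSG00000185201, chr11:307631-315272) measured 47.6, 55.1 and 44.2 CPM flat, 28.2, 31.1 and 60.2 CPM concave and 29.3, 36.5 and 44.4 CPM convex, with concave 3 the highest of all. For both genes the shapes overlapped, at means of 41.2 ± 8.78, 36.1 ± 15.98 and 26.5 ± 7.17 CPM for IFITM1 and 49.0 ± 5.59, 39.8 ± 17.7 and 36.7 ± 7.57 CPM for IFITM2. The annotated span of IFITM2 covers IFITM1, and of the 100-base stretches of IFITM1 transcripts between 34.0% and 45.2% also occur in IFITM2 or IFITM3 transcripts, against 5.92% for IFITM3 and 0.0% for IFITM2. Of 50-base stretches, 38.9% to 50.1% of IFITM1, 20.3% of IFITM3 and 15.7% to 15.8% of IFITM2 also occur in transcripts of other genes. How the counting treated such reads is not given in the sources used here, so the split of counts between the 3 genes is uncertain.

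The remaining genes act upstream of effectors. IRF1 (ENSG00000125347, chr5:132481609-132490798), a transcription factor that binds interferon response elements, measured 3.73, 3.31 and 3.14 CPM flat, 2.72, 3.04 and 2.49 CPM concave and 3.40, 3.47 and 3.59 CPM convex. The concave libraries lay below all flat and all convex ones, at a mean of 2.75 ± 0.277 CPM against 3.39 ± 0.302 flat and 3.49 ± 0.0964 convex. IRF1 rests on 120 to 231 counts a library, and a gene on its opposite strand, C5orf56, held 330 counts against 1717 for IRF1 in all, which cannot be told apart if strand was not used in counting.

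IFI16 (ENSG00000163565, chr1:158999968-159055155), a nuclear sensor of DNA, measured 8.21, 8.51 and 8.03 CPM flat, 8.99, 8.59 and 7.70 CPM concave and 7.31, 7.38 and 5.83 CPM convex. The convex libraries lay below all flat and all concave ones. Means were 8.25 ± 0.239, 8.43 ± 0.660 and 6.84 ± 0.878 CPM. Over all 9 libraries the coefficient of variation was 12% for IFI16, 12.7% for IRF1 and 17.1% for IFI27, against 57.3% for BST2, 57.7% for ISG15 and 52.7% for IFI6. Without flat 2 it was 38.0%, 26.1% and 25.3% for the last 3.

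Separation of the libraries by plate shape was thus found for 2 of the 9 genes with concave below flat (ISG15 and IRF1), where 2.96% of all tested genes behaved so, and for 2 of 9 with convex below flat (IFITM3 and IFI16), where 7.76% did. Concave libraries lay below all convex ones for IRF1 (2.08% of tested genes) and above them for IFI16 (1.49%). Scaled by library size only, 3 of these separations were lost, since ISG15 stood at 16.9 CPM in concave 1 and 15.6 in flat 3, IRF1 at 3.18 CPM in concave 2 and 3.03 in flat 3, and IFI16 at 7.17 CPM in concave 3 and 7.72 in convex 1.

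No difference between plate shapes passed the test across all genes for any of the 9 genes, and the largest estimates were lower values of BST2, ISG15, IFI6 and IFITM3 on curved plates. In concave against flat libraries, edgeR's quasi-likelihood test with Benjamini-Hochberg adjustment called 0 of the 9 at an adjusted p under 0.05, as it did 0 of all tested genes (0.0%), and DESeq2 and limma voom also called 0 of the 9. At an unadjusted p under 0.05 stood 3 of the 9 (BST2, ISG15 and IFITM3) and 1047 of all 23075 genes (4.54%). The log2 difference was below 0 for 8 of the 9, with a median of -0.30. Over all tested genes 48.4% were below 0 with a median of 0.01. Among those with transcripts under 1000 nucleotides 53.7% were, with a median of -0.06.

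The concave difference was -1.05 for ISG15 (log2, SE 0.35, edgeR adjusted p = 0.841), that is 2.08-fold lower, -0.89 for BST2 (SE 0.38, adjusted p = 0.841 in edgeR), -0.80 for IFI6 (SE 0.42) and -0.55 for IFITM3 (SE 0.24). Without flat 2 these 4 became -0.53, -0.45, -0.21 and -0.30. The other 5 genes lay between -0.30 (IRF1, SE 0.23) and 0.03 (IFI16, SE 0.20), with edgeR adjusted p of 0.841 to 0.987.

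In convex against flat libraries, edgeR likewise called 0 of the 9 genes and 0 of all tested genes (0.0%), with 3 of 9 at an unadjusted p under 0.05 (BST2, ISG15 and IFITM3) beside 2135 of 23075 (9.25%). DESeq2 called 0 of the 9 and 1 gene of all, limma voom 0 and 0. The log2 difference was below 0 for 7 of 9, at a median of -0.64. Of all tested genes 49.2% were below 0, at a median of 0.01. Of those with transcripts under 1000 nucleotides 56.2% were, at a median of -0.13. BST2 differed by -1.17 (SE 0.38, 2.26-fold lower), ISG15 by -1.02 (SE 0.35), IFITM3 by -0.69 (SE 0.24) and IFITM1 by -0.64 (SE 0.32), each with an edgeR adjusted p of 0.513, and IFI6 by -0.77 (SE 0.42, edgeR adjusted p = 0.517). Without flat 2 these were -0.74, -0.50, -0.45, -0.80 and -0.20. IFI27 (0.22, SE 0.29) and IRF1 (0.04, SE 0.23) had positive estimates.

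Concave and convex estimates share the 3 flat libraries, so their likeness is not a separate observation. With the library number as a block, 5 of the 9 genes (BST2, ISG15, IFITM1, IFITM3 and IFI6) stood at an unadjusted p under 0.05 in convex against flat, where 18.3% of all genes did, and the smallest edgeR adjusted p was 0.264.

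**Figure D3:**
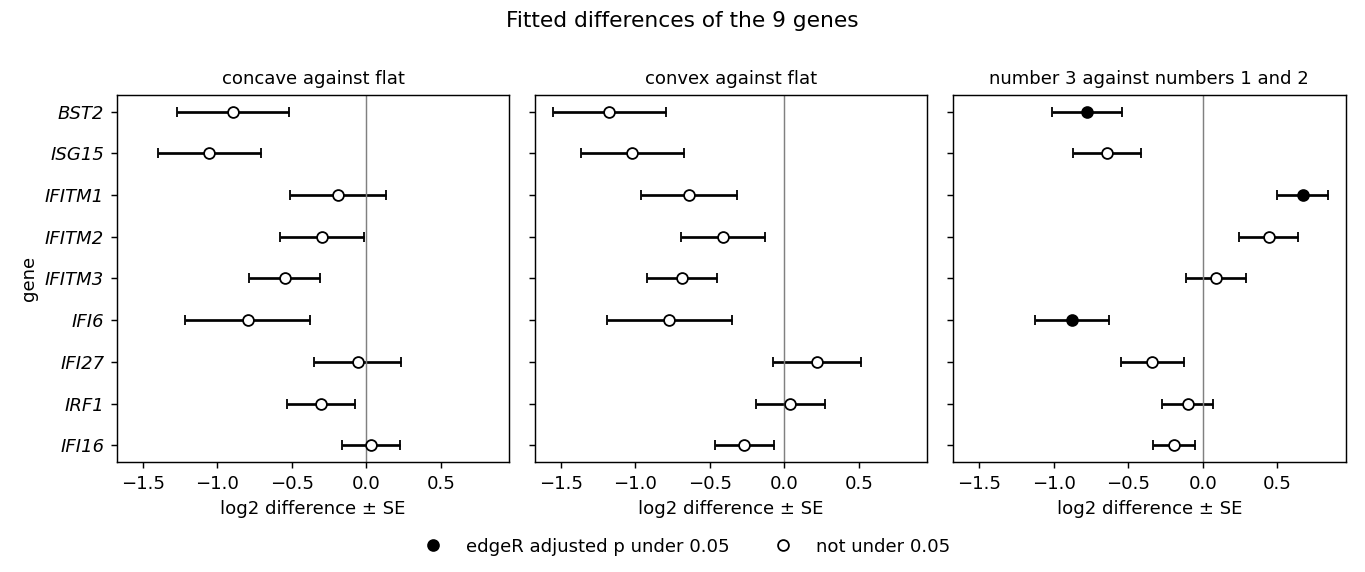
Log2 differences fitted by edgeR for the 9 genes with their standard errors, for concave against flat, convex against flat and libraries numbered 3 against numbers 1 and 2; filled points have an adjusted p under 0.05. Filled points occur only in the comparison of library numbers, for BST2 (-0.78), IFITM1 (0.67) and IFI6 (-0.88).

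Directly compared, concave and convex libraries gave 0 of 9 genes called by edgeR (0.0% of all tested), 0 of 9 at an unadjusted p under 0.05 (0.282% of all), and 0 of 9 with DESeq2 or limma voom. The estimates ran from -0.34 (IRF1, SE 0.23) to 0.45 (IFITM1, SE 0.32), each with an edgeR adjusted p of 1.00. The test over the 3 shapes at once called 0 of 9 and 0 of all (0.0%), with BST2, ISG15 and IFITM3 at an unadjusted p under 0.05 (3.89% of all genes), and DESeq2 and limma voom called 0 of the 9 there.

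Because library numbers differed across the series, each curved library was also set against the flat library of its own number. The main tests of plate shape did not take the number as a pairing. The joint deviation of concave and flat libraries was uneven, at r of 0.379, 0.0211 and 0.338 over genes in numbers 1, 2 and 3. For BST2, ISG15 and IFI6 the flat library was above both curved ones within all 3 numbers. That is 3 of the 9 genes, where 8.76% of all tested genes and 8.61% of those with transcripts under 1000 nucleotides did the same. Of these 3, ISG15 and IFI6 belong to that short class and BST2 (1019 nucleotides) does not. Within numbers 1 and 3 alone, which any gene of the former count meets by construction, the count was also 3 of 9, where 12.4% of tested genes did so.

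The size of the step varied between numbers. For BST2 the log2 ratio of concave to flat was -0.53 in number 1, -1.77 in number 2 and -0.01 in number 3, and that of convex to flat was -0.89, -1.65 and -0.65. ISG15 gave -0.66, -1.74 and -0.35 for concave and -0.68, -1.49 and -0.53 for convex. IFI6 gave -0.21, -1.51 and -0.26 for concave and -0.19, -1.41 and -0.36 for convex. In these 3 genes number 2, which holds flat 2, gave the steepest step for either shape.

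For the IFITM genes the sign on the concave plate differed between numbers. In concave against flat, IFITM3 gave -0.66, -1.20 and 0.24, IFITM2 gave -0.76, -0.83 and 0.44, and IFITM1 gave -0.34, -0.56 and 0.11 in numbers 1, 2 and 3. Convex 3 was below flat 3 for IFITM1 (-0.51) and IFITM3 (-0.16), and IFITM2 was at 0.01 there. Over the 6 ratios of a curved to a flat library, IFITM1 and IFITM3 were lower in 5, IFITM2, IRF1 and IFI16 in 4, and IFI27 in 2. Each flat library serves for both curved shapes, so the 6 ratios are not separate observations. The median over the 9 genes was -0.46, -0.83 and -0.01 for concave in numbers 1, 2 and 3 and -0.68, -0.59 and -0.36 for convex, where the medians over all tested genes lay between -0.01 and 0.03.

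**Figure D4:**
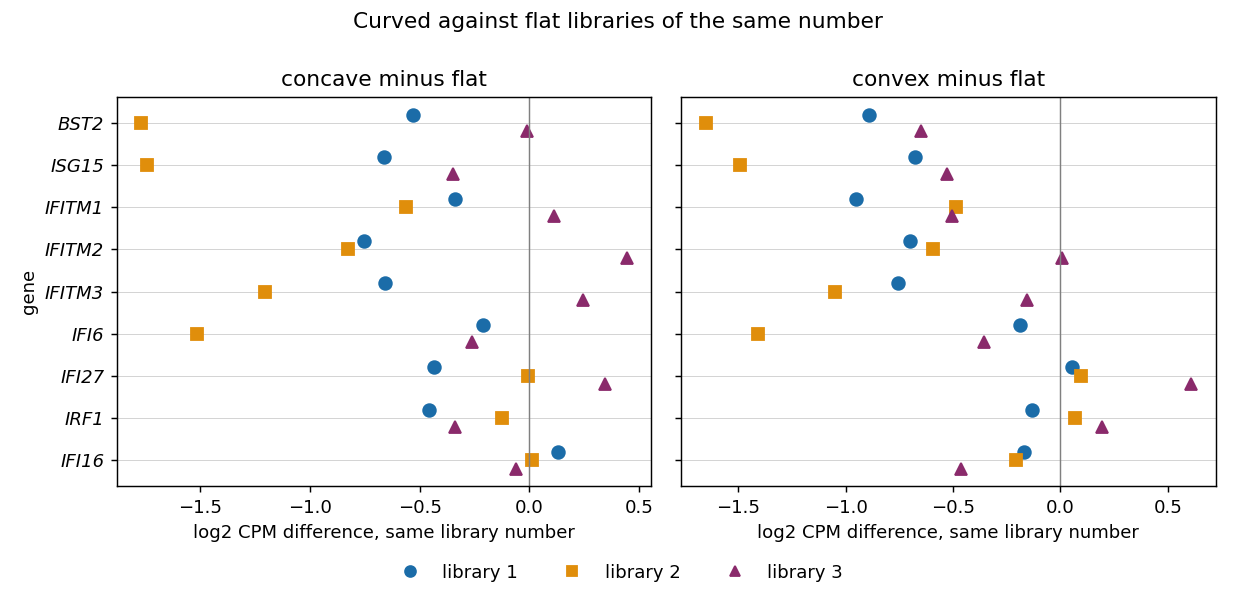
Log2 ratio of CPM between each curved library and the flat library with the same number, for concave (left) and convex (right) plates and the 9 genes. The points of BST2, ISG15 and IFI6 all lie below 0, with library 2 farthest to the left, and for the 3 IFITM genes on the concave plate library 3 lies above 0.

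Flat 2 was the highest of the 9 libraries for 4 of the 9 genes, BST2, ISG15, IFITM3 and IFI6. Among all tested genes it was the highest for 27.7%, and among those with transcripts under 1000 nucleotides for 37.7%. BST2, at 1019 nucleotides, falls outside that short class. Of the 9 genes, 7 have transcripts under 1100 nucleotides. Flat 2 exceeded the median of the other 8 libraries 3.16-fold for BST2, 3.02-fold for ISG15, 2.75-fold for IFI6 and 2.01-fold for IFITM3, or by 1.66, 1.59, 1.44 and 1.01 on the log2 scale, against a median of 0.27 for genes under 1000 nucleotides and 0.34 for those from 1000 to 2000. IFITM2, also short, stood 0.46 higher in flat 2, while IFITM1 stood at -0.10 and IFI27 at 0.03. The part of transcript length in the flat 2 values of these genes was not tested. Every library was also corrected for transcript length. The estimates in concave against flat then moved from -0.89 to -0.67 for BST2 and from -1.05 to -0.89 for ISG15. They moved from -0.80 to -0.60 for IFI6 and from -0.55 to -0.40 for IFITM3. There 1 of the 9 genes rather than 3 stood at an unadjusted edgeR p under 0.05, beside 945 of 21940 tested genes. In convex against flat 3 of the 9 did so with and without the correction, beside 1789 of 21940 with it. With the library number as a block as well, 4 (concave) and 5 (convex) of the 9 did, beside 2211 and 4044 of 21940.

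**Figure D5:**
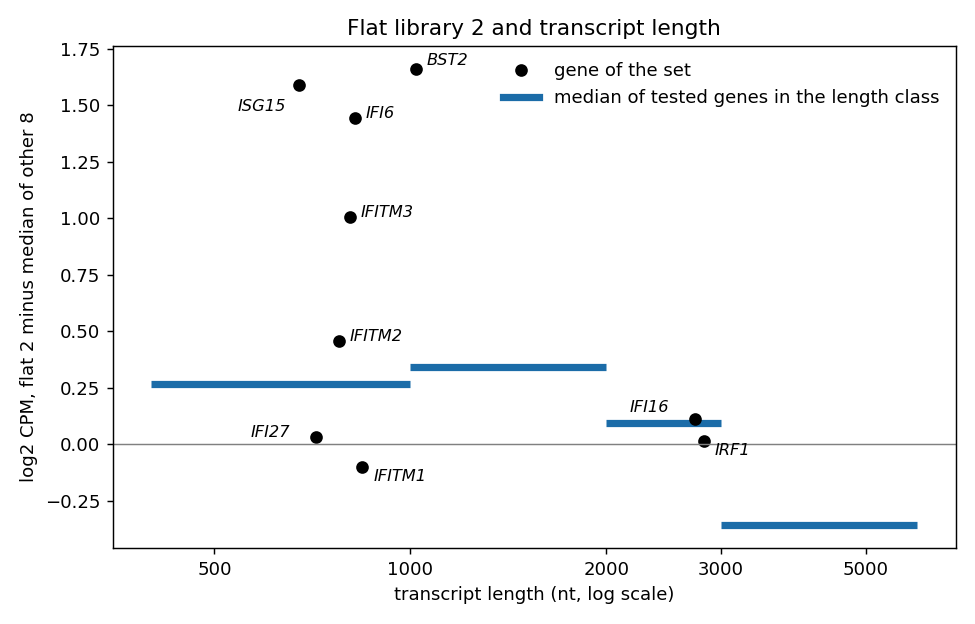
Log2 CPM in flat library 2 minus the median of the other 8 libraries, against transcript length in nucleotides on a log axis; points are the 9 genes and blue bars the medians of tested genes in 4 length classes. BST2, ISG15, IFI6 and IFITM3 lie at 1.01 to 1.66, while the medians of the length classes run from 0.34 down to -0.36.

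The libraries numbered 3 differed from numbers 1 and 2 in 3 of the 9 genes, where edgeR, with plate shape in the model, called 16.3% of all tested genes. This split of the libraries was known to separate them from earlier results, so its p-values do not allow for that choice. BST2 and IFI6 fell (2 of 9, where 8.68% of tested genes were called lower) and IFITM1 rose (1 of 9, where 7.59% were called higher). BST2 stood at 126 ± 29.8 CPM (SD, n = 3) in number 3 and at 235 ± 125 CPM (n = 6) in numbers 1 and 2, a log2 difference of -0.78 (SE 0.23, edgeR adjusted p = 0.0469). IFI6 stood at 3.91 ± 0.512 against 7.52 ± 3.53 CPM (-0.88, SE 0.25, edgeR adjusted p = 0.0359). IFITM1 stood at 45.7 ± 9.74 against 29 ± 8.42 CPM (0.67, SE 0.17, edgeR adjusted p = 0.0227).

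With each library left out in turn, IFITM1 remained called in 5 of 9 fits, and BST2 and IFI6 in 3 of 9 each, at edgeR adjusted p of 0.0134 to 0.130, 0.0166 to 0.205 and 0.00895 to 0.161. None of the 9 genes was called without convex 1, convex 2 or convex 3. Of all tested genes, 2163 of 23709, 2658 of 23770 and 1048 of 23713 were called there. Without concave 1 or concave 3, 1 of the 9 was called, beside 2552 of 23680 and 2383 of 23825 genes. Without flat 2, 4 of the 9 were called, among them ISG15 (-0.47, edgeR adjusted p = 0.0164), beside 5402 of 23755 genes. With no term for plate shape 0 of 9 were called, beside 3563 of 23075 genes. The estimates of BST2, IFI6 and IFITM1 were -0.90, -0.94 and 0.66 in that fit and -0.79, -0.93 and 0.69 without convex 3, while without flat 3 they were -0.52, -0.70 and 0.78. In the main test ISG15 (-0.64, SE 0.23, edgeR adjusted p = 0.0809) missed the threshold, as did IFITM2 (0.44, edgeR adjusted p = 0.157), IFITM3 (0.09), IFI27 (-0.34), IRF1 (-0.10) and IFI16 (-0.19).

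Of the 9 genes, IFI6 alone had all 3 libraries numbered 3 below the other 6 (12.5% of tested genes). Within each plate shape the library numbered 3 was the lowest for ISG15, IFI6 and IFI16 (17.2% of tested genes) and the highest for IFITM1 (15.8%). Number 3 is also where the markers of pluripotency and neuroectoderm given above differed. Amnion and trophectoderm markers summed to 90.7 to 159 CPM there against 66.3 to 74.1 CPM in the other 6 libraries, nearly all of it IGFBP3 (means of 128 and 67.2 CPM), with 4 of 7 (ISL1, CDX2, HAND1 and CGA) under 1 CPM. Of 5 tested markers of non-neural ectoderm 3 were called higher (KRT18, KRT7 and TFAP2C), with sums of 547 to 620.3 against 316 to 569 CPM and TFAP2A, GATA3 and DLX5 under 1 CPM. Of 5 tested fibroblast and endothelial markers VWF, CDH5 and PECAM1 were called lower and KDR higher, with sums of 1019 to 1510 against 564 to 1161 CPM, mostly COL1A1, which was not called, and COL3A1, DCN and LUM under 1 CPM. The part of these markers in the differences of the 9 genes was not tested. Libraries numbered 2 against 1 gave 0 of 9 genes called by edgeR (0.0% of all), 0 of 9 at an unadjusted p under 0.05 (8.54% of all), and 0 of 9 with DESeq2 or limma voom.

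Over the 9 libraries, Pearson's r of log2 CPM was 0.95 between BST2 and ISG15, 0.93 between BST2 and IFI6 and 0.95 between ISG15 and IFI6, and without flat 2 it was 0.90, 0.84 and 0.84. Among the IFITM genes, r was 0.85 between IFITM2 and IFITM3, 0.71 between IFITM1 and IFITM2 and 0.52 between IFITM1 and IFITM3, or 0.89, 0.79 and 0.83 without flat 2. IFITM3 was also like ISG15 (0.77) and BST2 (0.72), at 0.36 and 0.37 without flat 2. The part of their shared sequence in this likeness was not tested. BST2 and IFITM1 gave 0.08, and IFITM1 and IFI6 gave -0.23. These are descriptions over 9 libraries that share plate shapes, library numbers and the length pattern of flat 2.

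The 3 genes most like each of the 9, by Pearson's r of log2 CPM, were sought among 11954 tested genes with a mean of at least 5 CPM. None was from the interferon lists, which hold 77 tested genes, some of them under that floor. With so few listed genes among so many, this cannot show whether the 9 follow the rest of the pathway. Nearest to BST2 were SH3GLB2, RCN3 and EGFL7 (r of 0.99 each), and nearest to ISG15 were PRDX2, CCM2 and UNC45A (0.99 each). Nearest to IFI6 were SMUG1 (1.00), PRMT2 and ITGB1BP1 (0.99 each). IFITM1 was closest to FOXH1 (0.99), a cofactor of nodal signalling, SMOC2 (0.98) and CD177 (0.97), IFITM2 to NECTIN2 (0.99), BCL2L1 and DLG3 (0.98 each), and IFITM3 to HACL1, AURKB and NDUFA10 (0.99 each). The likeness was lower for the low genes. IFI27 was closest to ZNF316 (0.93), ZFP41 (0.90) and GRIK5 (0.88), IFI16 to SGCB and CDS2 (0.92 each) and PCCA (0.89), and IRF1 to IER5 (0.83), SAPCD2 (0.82) and HEXIM1 (0.79).

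The rest of the pathway was read from 9 lists of 112 genes, of which 111 were found in the table and 77 were tested. No difference between plate shapes was called for any of the 77 (edgeR, 0 in each of the 3 comparisons). In number 3 against numbers 1 and 2, 17 of the 77 were called, 9 higher and 8 lower, or 22.1% beside 16.3% of all tested genes. With each library left out, 4 (without convex 3) to 24 (without flat 2) of the 77 were called, with 9 without flat 3, 10 without convex 1 and 11 without concave 3. IFIT1, MX1, PLSCR1 and OAS2 remained called in all 9 of these fits, IRF4 in 1, HERC5 in 2, SOCS1 in 3, STAT2 and UBE2L6 in 4, IRF2BP2 in 6, IFNLR1, IFI27L2 and IFITM10 in 7 and SOCS3 in 8. RNA of the interferons themselves was near absent. Of 21 interferon ligand genes, 15 had no count in any library and all lay under 1 CPM, the highest single value being 0.126 CPM of IFNE. Of 6 receptor genes IL10RB lay under 1 CPM in every library. The highest were IFNGR1 (40.4 ± 4.94 CPM, SD, n = 9), the ligand-binding chain for interferon gamma, IFNAR1 (23.9 ± 1.09 CPM), a chain of the type I receptor, and IFNGR2 (22.6 ± 4.803 CPM). IFNLR1, a chain for interferon lambda, rose in number 3 (log2 0.65, SE 0.14, edgeR adjusted p = 0.0127).

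Of the 7 JAK and STAT genes, STAT3 (128 ± 17.6 CPM) and the kinase TYK2 (54.4 ± 7.005 CPM) were among the highest. In concave and in convex against flat 0 of the 7 were called. Flat 2 had the lowest sum of the list, 231 CPM, and held STAT3 at 82.8 CPM beside 136 and 127 CPM in flat 1 and 3. STAT2, a subunit of the factor that binds the ISRE, fell in number 3, from 48.6 ± 4.44 to 36.5 ± 4.03 CPM (-0.42, SE 0.11, edgeR adjusted p = 0.0287). Among the other IRF factors, IRF3 (81.9 ± 18.8 CPM), IRF2 (8.98 ± 1.22 CPM) and IRF7 (7.60 ± 1.79 CPM) led, and IRF4 rose in number 3 (0.52, edgeR adjusted p = 0.0428). Of 14 genes in the list of nucleic acid sensors and their partners, IFIH1, TICAM1 and ZBP1 lay under 1 CPM in every library. The highest were the RNA editor ADAR (403 ± 56.5 CPM), the adaptor MAVS (103 ± 14.9 CPM) and the kinase EIF2AK2 (77.3 ± 12.6 CPM). In number 3, 0 of 13 tested were called.

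Of 38 other interferon-inducible effectors 29 were tested and 14 lay under 1 CPM, and CXCL10 had no count. The highest were LGALS3BP (121 ± 24.8 CPM), PML (43.8 ± 2.83 CPM) and TRIM22 (32.9 ± 6.74 CPM). In number 3, 3 of the 29 rose and 4 fell. IFIT1, which binds viral RNA, fell from 8.32 ± 1.67 to 3.05 ± 0.394 CPM (-1.44, SE 0.18, edgeR adjusted p = 0.000773), in the direction of BST2 and IFI6. MX1, a GTPase that blocks viruses, rose from 1.82 ± 0.379 to 5.89 ± 1.85 CPM (1.66, SE 0.23, edgeR adjusted p = 0.00125), in the direction of IFITM1. PLSCR1 rose (0.80, edgeR adjusted p = 0.00255) and OAS2, at 0.0528 to 0.942 CPM, fell (-2.58, edgeR adjusted p = 0.00484).

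Of 5 listed genes of ISG15 conjugation, the highest were ARIH1 (89.5 ± 7.69 CPM), UBE2L6 (61.0 ± 19.5 CPM) and HERC5 (28.3 ± 4.86 CPM). UBA7, also in that list, lay under 1 CPM in every library. In number 3 the conjugating enzyme UBE2L6 fell from 69.4 ± 18.2 to 44.2 ± 8.22 CPM (-0.63, SE 0.16, edgeR adjusted p = 0.0225) and the ligase HERC5 rose from 25.3 ± 1.75 to 34.3 ± 2.33 CPM (0.44, SE 0.11, edgeR adjusted p = 0.0257), so the list did not move one way. Of 8 negative regulators, led by PTPN11 (181 ± 42.5 CPM), PTPN2 (62.6 ± 7.70 CPM) and PIAS1 (47.7 ± 8.61 CPM), 3 rose in number 3, the cytokine suppressors SOCS3 (1.09) and SOCS1 (0.63) and IRF2BP2 (0.54). Of 4 tested relatives of the 9 genes, IFI27L2 (9.29 ± 7.99 CPM) and IFITM10 (0.453 ± 0.300 CPM) fell in number 3 (log2 -1.53 and -1.54, edgeR adjusted p = 0.0137 and 0.0147), IFI27L1 (21.1 ± 7.64 CPM) was not called, and AIM2, a DNA sensor related to IFI16, stayed at 4.22 to 5.62 CPM.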

How the data were processed

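The authors deposited raw counts for each Ensembl gene in 9 libraries. The submitters' processing notes name HISAT2, featureCounts and GRCh38. Their versions, the annotation, the strand setting and the treatment of reads that match several genes are not given in these sources. Per the labels' protocols, libraries were poly-T selected and strand specific. Columns were matched to libraries by group and number, and 0 others were left aside. Totals were 49420082 to 64763412 counts, and the 9 genes rest on at least 72 counts a library.

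Counts were fitted in edgeR 4.0.16 (R 4.3.3; filterByExpr by plate shape, TMM, robust quasi-likelihood) with all 9 libraries, and p-values were adjusted by Benjamini-Hochberg over all 23075 genes tested, two-sided, with calls at an adjusted p under 0.05. DESeq2 1.42.0, limma 3.58.1, other scalings and filters, a correction for transcript length (lowess, span 0.3), the library number as a block, and each library left out were alternatives. Levels use TMM-scaled CPM. Transcript length and coordinates are from GENCODE release 29 (GRCh38), as a median over principal transcripts, and 95.1% of tested genes had one. Symbols came from a table of Ensembl identifiers that named 62639 of 62710 genes. The ratios within a number are of CPM, and correlations use log2(CPM + 0.1). The procedure was tested on simulated counts.

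Libraries of the same number deviated together for flat and convex (r = 0.372, 0.397 and 0.62 over genes for numbers 1, 2 and 3). They did so for concave and convex too (0.579, 0.29 and 0.612). Flat and concave gave 0.379, 0.0211 and 0.338, near 0 in number 2 only, so a pairing is less clear there. The main tests of plate shape had no term for the number in any comparison. Only the alternative fits with the block used it.

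The 9 genes, the gene lists and the split by library number were chosen with earlier results of these data known. The text names the 9 genes always. Of each list it names the up to 3 genes highest by mean CPM and, where a comparison called any, the up to 4 called with the smallest p. Of some lists it also names genes that lay under 1 CPM in every library. Of other genes it names the 3 nearest to each of the 9 by correlation. A gene that this rule names is not reported here.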

Additional observations from a re-analysis of the deposited data

Results flagged for a closer look

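Among the 6 libraries numbered 1 and 2, taken as a group of 6 because number 3 stood apart, 3 of the 9 genes had a library whose gap to its nearest neighbour was larger, as a share of the whole range, than the 95% limit of Dixon's test. ISG15 stood at 47.8 CPM in flat 2, far above the other 5. IFI6 stood at 14.6 CPM in flat 2, also far above. IFI27 stood at 1.56 CPM in concave 1, below the others. Chance flags about 1 in 20 groups of like libraries, and 9 were examined. These groups mix plate shapes, and ISG15 and IFI6 were alike over the 9 libraries (Pearson's r of 0.95). The flags are therefore not separate events to count against that rate.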

How the results depend on the processing

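Under the alternatives tried for the comparisons of plate shapes, 0 of the 9 genes were called in any, at edgeR, DESeq2 or limma adjusted p of 0.23 to 1.0 (concave), 0.105 to 1.0 (convex), each against flat, and 1.0 between the curved shapes. Over all genes DESeq2 called 1 in convex against flat, and the replicate block without flat replicate 2, added after seeing the data, called 1 in concave against flat, 1 in convex against flat and 1 in the test over the 3 shapes. The replicate block with all libraries called 0 in every comparison of shapes, with 2046, 4222 and 147 genes (concave and convex against flat, and between the curved shapes) at an unadjusted p under 0.05. It moved ISG15 in concave against convex to 0.00093. With the block BST2 differed by -0.78 in concave and -1.11 in convex against flat.

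Signs turned, all without a call, as follows; the cause was not tested. With length correction IFI27 in concave against flat was 0.058, and 0.062 with the block too. IRF1 in convex against flat was -0.0197 with the block and without flat 2. IFITM3 in number 3 was -0.018 with library size only and -0.0028 with no shape term. In number 2 against 1, BST2 was 0.0054 with DESeq2 size factors or with DESeq2 and 0.14 with no shape term; IFI16 was 0.00995 and 0.0098 with these, 0.0059 (only the libraries compared) and 0.00065 (length correction); IRF1 was -0.039 (library size), -0.014 (upper quartile) and -0.0038 (no shape term).

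With each library left out, the log2 ranges that crossed 0 were, in concave against flat, IFI16 -0.026 to 0.089, IFI27 -0.27 to 0.079 and IFITM1 -0.58 to 0.080. In convex against flat it was IRF1 at -0.031 to 0.11. Between the curved shapes they were IFI6 -0.24 to 0.18, IFITM2 -0.30 to 0.32, IFITM3 -0.076 to 0.26 and ISG15 -0.195 to 0.097. In number 3 it was IFITM3 at -0.22 to 0.37, and in number 2 against 1 they were BST2 -0.44 to 0.32, IFI16 -0.054 to 0.031, IFI27 -0.062 to 0.23, IFI6 -0.24 to 0.43, IFITM3 -0.0699 to 0.43, IRF1 -0.077 to 0.0899 and ISG15 -0.053 to 0.59.

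In number 3, 0 of the 9 genes were called with no shape term, beside 3563 of 23075 tested genes. With a library left out, 0 to 4 of the 9 were called. The count over all genes then ran from 1048 (without convex 3) to 5402, with 2163, 2331 and 2383 without convex 1, flat 3 and concave 3. BST2 missed the threshold with DESeq2 size factors (-0.77). ISG15 passed it with library size only (-0.74), no filter (-0.65), DESeq2 (-0.63) and an adjusted p under 0.1, and IFITM2 with length correction (0.57). In number 2 against 1, genes called over all were 1 (DESeq2 size factors), 108 (no filter), 154 (DESeq2), 1 (adjusted p under 0.1) and 2 (length correction), and 0 to 11 with a library left out. Depth limits IFI27 and IRF1 most, at 72 to 149 and 120 to 231 counts a library.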
